A study of Homo sapiens with 24 samples.

Results

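The 83 genes examined here encode the proteins of the cytosolic ribosome and their close paralogs, out of 19441 named genes that were represented on both array designs. They were chosen by symbol alone, as RPL or RPS followed by a number with an optional short suffix, together with RPLP0, RPLP1 and RPLP2, so that pseudogenes and ribosomal proteins with other names such as RPSA and FAU were left out. No measured value entered this rule, but the set was chosen with earlier results of these data known. The set held 43 large-subunit genes, 30 small-subunit genes, 3 stalk genes and 7 paralogs. Of these, 81 were measured on all 24 arrays, and RPL27A and RPL39L were measured on 21 and 19 arrays. In the control samples the median member lay between 6.25 and 7.38 log2 units above the 75th percentile of its channel.

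Each of the 24 two-colour arrays compared 1 treated culture, labelled with Cy5, with 1 control culture of the same established cancer cell line, labelled with Cy3. PC3, DU145 and LNCap are prostate cancer lines, A498 and 786O are renal cell carcinoma lines, and FaDu and SAS are head and neck squamous cell carcinoma lines. Genistein, a soy isoflavone, was set in PC3 and DU145 against cells that the labels call untreated and the study's methods call vehicle-treated (DMSO), and wogonin, a plant flavone, against DMSO in SAS and FaDu. CXCL10, a chemokine, was set against untreated 786O cells after 12 and 24 h. The labels give neither the doses nor the times of the other treatments, and the study's methods state those of genistein. Transfected miR-145 (PC3, DU145, LNCap), miR-143 (DU145, PC3), miR-27b (PC3, 786O, A498), miR-23b and miR-24 (PC3), miR-29a (SAS) and miR-375 (FaDu) were set against a control miRNA. Transfected si-CAV2 (A498, 786O), si-LAMB3 (FaDu, SAS) and si-GOLM1 (DU145, PC3), which are small interfering RNAs, were set against a control siRNA.

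There was 1 array per treatment and line, so a single array has no replicate check, and the lines were the only repeats of a treatment. The treated sample carried Cy5 on every array, so a dye effect cannot be told apart from a treatment effect. The arrays lay on 3 slides of 8 arrays, and every treatment other than miR-27b lay on 1 slide. The PC3 arrays of miR-23b, miR-24 and miR-27b shared 1 control sample by name, so their values are given side by side and are not independent of each other. In bulk RNA, fewer cells of a type and less RNA per cell cannot be told apart.

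The ribosome is built from ribosomal RNA and, for most ribosomal proteins, a single copy of each, with the large subunit forming peptide bonds and the small subunit decoding the messenger RNA. The stalk proteins RPLP0, RPLP1 and RPLP2 recruit the elongation factors. In vertebrates nearly all ribosomal protein mRNAs begin with a 5′ terminal oligopyrimidine (TOP) motif, a C followed by an unbroken run of C and T, through which their translation answers to the mTOR kinase and the RNA-binding protein LARP1. Ribosomal proteins made in excess are normally degraded, and several of them, RPL5 and RPL11 above all, bind MDM2 when ribosome assembly is disturbed and so stabilise p53. Some family members have a paralog that is used in particular tissues, such as RPL3L in muscle and RPL10L and RPL39L in testis, or that responds to p53, such as RPS27L.

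The start of the transcript is shown for the members on which the results below turn, because it is the feature that TOP mRNAs share. Each window holds 10 bases before and 20 bases from the RefSeq transcript start on GRCh38.p14, read 5′ to 3′ on the strand of the gene, and capitals mark the unbroken run of C and T that begins with C at the annotated start.
RPL26 (chr17:8383174-8383203, minus): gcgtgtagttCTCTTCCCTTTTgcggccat
RPS12 (chr6:132814559-132814588, plus): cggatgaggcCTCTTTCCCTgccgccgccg
RPS27 (chr1:153990752-153990781, plus): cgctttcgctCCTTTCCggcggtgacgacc
RPL12 (chr9:127451387-127451416, minus): cgatttccggCCTCTCggctttcggctcgg
RPL28 (chr19:55385922-55385951, plus): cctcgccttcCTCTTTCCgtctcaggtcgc
RPL36 (chr19:5690285-5690314, plus): cggcgccagcCCTTCCgccacggccgtctc
RPS25 (chr11:119018324-119018353, minus): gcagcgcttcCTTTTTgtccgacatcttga
RPS24 (chr10:78033853-78033882, plus): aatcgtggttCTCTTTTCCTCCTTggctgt
RPS14 (chr5:150449720-150449749, minus): ccctcccactCTCTCTTTCCggtgtggagt
RPL22L1 (chr3:170870176-170870205, minus): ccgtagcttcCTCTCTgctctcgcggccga
RPL22 (chr1:6199576-6199605, minus): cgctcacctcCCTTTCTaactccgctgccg
RPS27L (chr15:63157458-63157487, minus): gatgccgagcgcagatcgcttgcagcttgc
RPL7L1 (chr6:42879606-42879635, plus): gtgcggcgccgtagctaggagcggacgcca

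The run was longest in RPS24, at 14 bases, among the members printed, and RPS27L and RPL7L1 had none. A window was found for 66 of the 83 members. A start with C and a run of at least 5 pyrimidines was present in 46 of the 66 (69.7%), against 1404 of 27305 genes of the whole table (5.14%). It was present in 45 of 61 subunit and stalk genes (73.8%) and in 1 of 5 paralogs, RPL22L1. By exact letters, with the gene's strand read from the annotated start, CTCTT opened 12 members (18.2%) and 0.714% of all genes, CCTTT 9 members (13.6%) and 0.399%, CTTTC 5 members (7.58%) and 0.52%, and CTTTT 5 members (7.58%) and 0.458%. These are matches of letters at annotated starts, and a start annotated a few bases away would not match.

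RefSeq mature sequences are given for miR-24, miR-375, miR-27b and miR-29a, each with a member past 1 on an array, with the seed, bases 2 to 8, in capitals. In PC3, miR-145 (RPL27A at -3.31) and miR-23b (RPS25 at 1.54) also had such a member and are not shown. The labels do not name the arm, and the 3p arm is shown.
hsa-miR-24-3p: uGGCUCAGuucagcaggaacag
hsa-miR-375-3p: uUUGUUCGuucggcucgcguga
hsa-miR-27b-3p: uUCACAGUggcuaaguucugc
hsa-miR-29a-3p: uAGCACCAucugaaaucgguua
The seeds all differ from each other.

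The silenced genes checked the siRNA labels. CAV2 stood at -3.80 (A498) and -3.20 (786O) and GOLM1 at -3.02 (DU145) and -4.15 (PC3) on the log2 scale, each below its lowest value on any other array (-0.81 for CAV2 and -1.995 for GOLM1). LAMB3 stood at -2.50 in FaDu and -0.89 in SAS, and the second value lay within the range of the other arrays, whose lowest was -2.11. Prostate markers were above background for 7 of 7 genes in LNCap and for 3 of 7 on every PC3 and every DU145 array, a number that A498 and FaDu reached too, so that the count of these markers did not set PC3 and DU145 apart. By level, HOXB13 did set PC3 apart, at 1.16 to 5.86 in PC3, against at most -0.61 in FaDu, the highest of the renal and squamous lines. In DU145 it was at most -7.29 and not above background. Renal markers numbered 7 of 7 in A498 and 6 of 7 in 786O, without CA9, and squamous markers 7 of 7 in FaDu and 6 of 7 in SAS, without TP63 on 1 array. No spot was saturated on any array.

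Most ribosomal protein genes had a higher log2 ratio on 1 of the 24 arrays, that of genistein in PC3, and few were far from their controls on 19 others. A value is called higher or lower here when the log2 ratio of treated over control was past 0.5, a limit of size and not a test. Of 1984 measured member values, 116 were higher and 48 were lower, and 28 and 12 of these were past 1. The array of genistein in PC3 held 58 of the 116 higher values. The scanner software's own error on a member's log2 ratio, which covers error within the array alone, was about 0.20 for most members. RPL28, RPS20, RPS27, RPL13A, RPL36 and RPS12 ranged by 2.01 to 3.23 log2 units over the arrays, each from a lowest value with miR-24 to a highest with genistein in PC3.

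**Figure D1:**
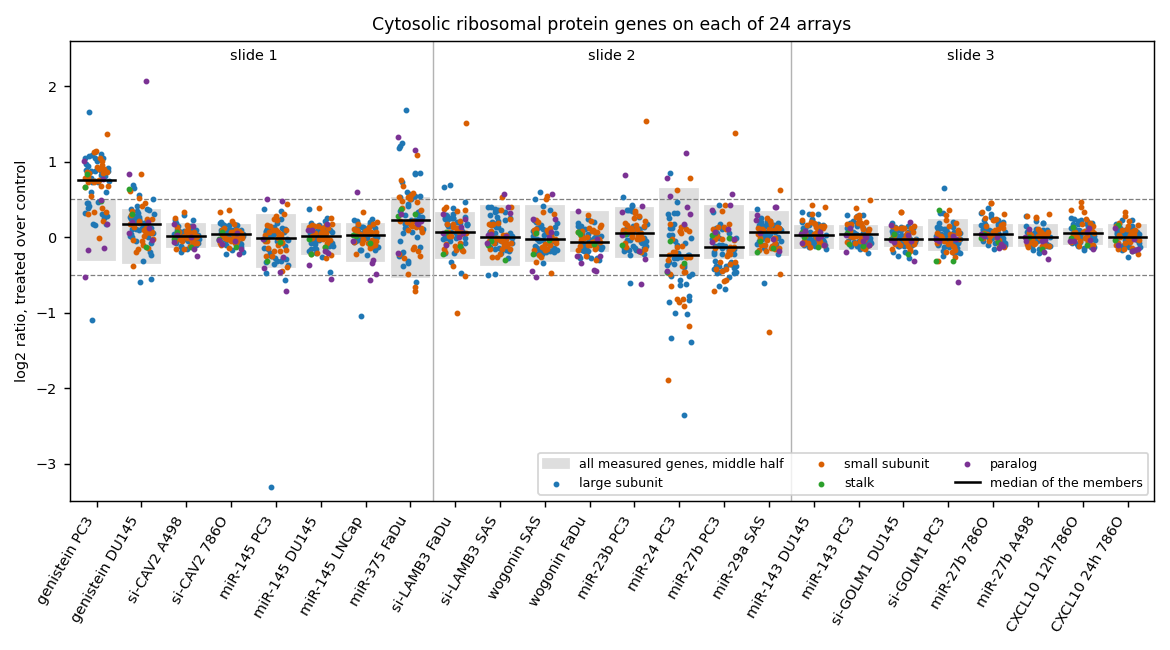
Log2 ratio of treated over control (vertical axis) for the ribosomal protein genes on each of 24 arrays (horizontal axis, by slide). Points are genes coloured by class, black lines the median of the members, grey boxes the interquartile range of all measured genes and dashed lines the limits of 0.5 and -0.5. The members' median was 0.76 with genistein in PC3, 0.22 with miR-375 in FaDu and -0.24 with miR-24 in PC3.

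Genistein in PC3 cells gave higher values across both subunits and the stalk. Of 83 members, 58 were above 0.5 (69.9%, against 24% of 14547 genes measured on that array) and 2 were below -0.5 (2.41%, against 16.8%). The median member stood at 0.76, with an interquartile range of 0.46 to 0.91, and the median of all genes at 0.09. The large subunit had 30 of 43 members higher (median 0.79), the small subunit 24 of 30 (0.77), the stalk 2 of 3 (0.66) and the paralogs 2 of 7 (0.18). Of the 81 members measured on all arrays, 58 had their highest value here (71.6%, against 10.8% of 11260 genes), which were 32 large-subunit, 22 small-subunit and 3 stalk genes and 1 paralog.

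The same drug in DU145 cells gave smaller values. Here 10 of 83 members were higher (12%, against 18.2% of 15242 genes) and 2 were lower (2.41%, against 17.1%). The median of the members was 0.17. Among the 1525 brightest genes of that array, which held 79 of the members, 9.7% were higher and 13.2% lower. The share of higher members was thus below that of all genes and above that of the brightest genes. In DU145 the members above 0.5 were RPL22L1, RPL39L, RPS12, RPL12, RPL26, RPLP1, RPS20, RPL23, RPS2 and RPL27, and those below -0.5 were RPL7A (-0.60) and RPL29 (-0.55). Of all 83 members, 60 were above 0 in both lines, 6 were past 0.5 in both, and 72 had the larger value in PC3. The 6 were RPL23, RPL26, RPL27, RPLP1, RPS12 and RPS20.

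RPL26, a large-subunit protein at the exit of the peptide tunnel, had the highest value in PC3, 1.65, and stood at 0.65 in DU145. Over the other 22 treatments and lines RPL26 ranged from -0.47 to 0.20. A second RPL26 probe gave 1.57 in PC3, and both probes lie on chr17 of hg19, the brighter at chr17:8283180-8283239. RPS27, a small-subunit protein with a zinc finger, stood at 1.36 in PC3 and 0.24 in DU145, while a dim second probe of it gave 0.47 in PC3. RPS12, of the small subunit, stood at 1.14 and 0.83. RPL23, which can bind MDM2, stood at 1.13 and 0.56, with 1.19 from a second bright probe and -0.30 from a dim probe at another position of the gene. RPLP1, an acidic stalk protein, had nearly equal values in the 2 lines, 0.66 and 0.63. Its partner RPLP2 stood at 0.48 and -0.14, and their anchor RPLP0 at 0.84 and 0.31. RPS6, the substrate of the S6 kinases, stood at 0.95 and 0.24. Over all 41 genes with a further probe, 64 of 76 further probes in PC3 lay within 0.5 of the brightest, and the median distance was 0.10.

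RPL22L1, the paralog of RPL22, departed from this order. It stood at 2.07 in DU145, its highest value, and at 0.49 in PC3. RPL22 itself, an RNA-binding protein of the large subunit, stood at 0.02 in DU145 and 0.32 in PC3. RPL39L went opposite ways, -0.53 in PC3 and 0.83 in DU145, and so did RPL29, 0.60 and -0.55, while RPL27A, a dim probe, stood at -1.10 and 0.41.

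**Figure D2:**
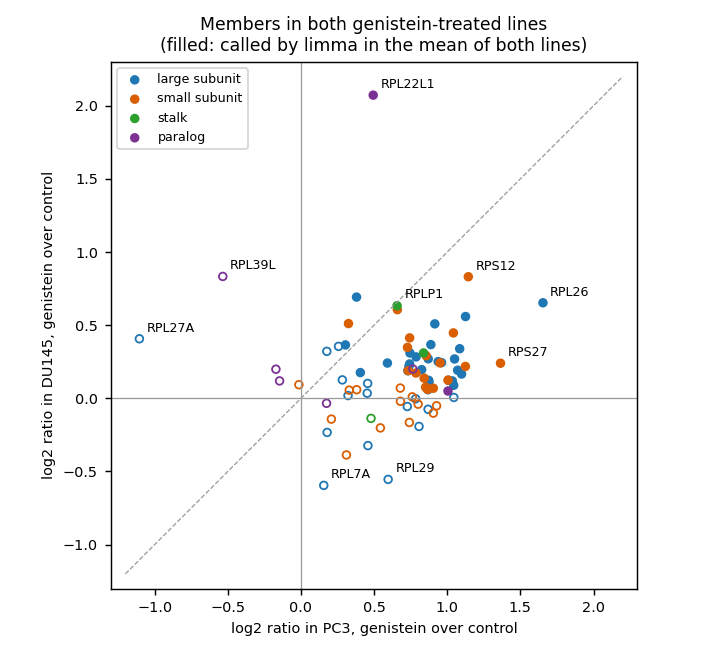
Log2 ratio of genistein over control in PC3 (horizontal axis) and DU145 (vertical axis) for 83 ribosomal protein genes, coloured by class. Filled points were called by limma in the mean of both lines, and the dashed line marks equal values. Most points lie right of 0.5 in PC3 and between 0 and 0.5 in DU145, with RPL22L1 far above the line.

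In the mean of both genistein lines, 47 of 81 tested members were called higher by limma at an adjusted p of 0.05 (58%, against 11.4% of 11260 genes) and 0 were called lower (against 8.86%). Without an adjustment, 59 of the 81 had p under 0.05. All 47 were above 0 in both lines, 36 were past 0.5 in PC3 alone, 6 in both and 2 in neither, and the rest in DU145 alone. RPL22L1 had the largest mean, 1.28 ± 0.26 (limma SE, adjusted p = 0.0044), from 0.49 in PC3 and 2.07 in DU145, and was 0.49 without DU145. RPL22L1 was followed by RPL26 at 1.15 ± 0.18 (adjusted p = 0.0012) and RPS12 at 0.99 ± 0.16 (adjusted p = 0.0012). These SEs rest on a spread taken from all treatments in 2 or 3 lines, and do not measure the distance between the 2 genistein lines. RPL23 (0.84), RPS27 (0.80), RPL37A (0.71), RPL27 (0.71), RPS18 (0.67) and RPL31 (0.66) were also among the 10 largest. By class the calls fell on 26 of 42 large-subunit, 17 of 30 small-subunit, 2 of 3 stalk and 2 of 6 paralog genes. With the PC3 array left out, 7 members were called higher, and with the DU145 array left out, 60.

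The level of the control sample moved with the PC3 result. Each channel was expressed as log2 signal minus the 75th percentile of the channel. On the genistein array in PC3 the median member level was 6.25 in the control and 6.89 in the treated channel. The control value was the lowest of the 7 PC3 arrays, whose other controls ran up to 6.89, and the PC3 control on the same slide, for miR-145, stood at 6.59. Members took 10.8% of the summed signal of that control, 13.2% of that of the miR-145 control and 17.4% of that of the treated sample. In 72 of 83 members the control lay below all 4 other PC3 control samples, and its median distance from their mean was -0.42. The treated sample lay 0.29 above the mean of the other controls, was above all 4 in 49 members, and had 15 members more than 0.5 above their mean. RPL26 had a control level of 4.84, against 5.64 to 5.93 for the same probe in the 4 other PC3 controls, and a treated level of 6.48. The part of the control sample in the result was not tested.

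In DU145 the genistein control lay 0.15 below the mean of the 3 other DU145 controls and the treated sample 0.01 above it, and 4 members were more than 0.5 above that mean. For RPL22L1 the control level was 4.57, against 6.10 to 6.57 in the other DU145 controls, and the treated level was 6.64. For RPS12 the control level was 6.31, the others 6.86 to 7.07, and the treated level 7.14.

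**Figure D3:**
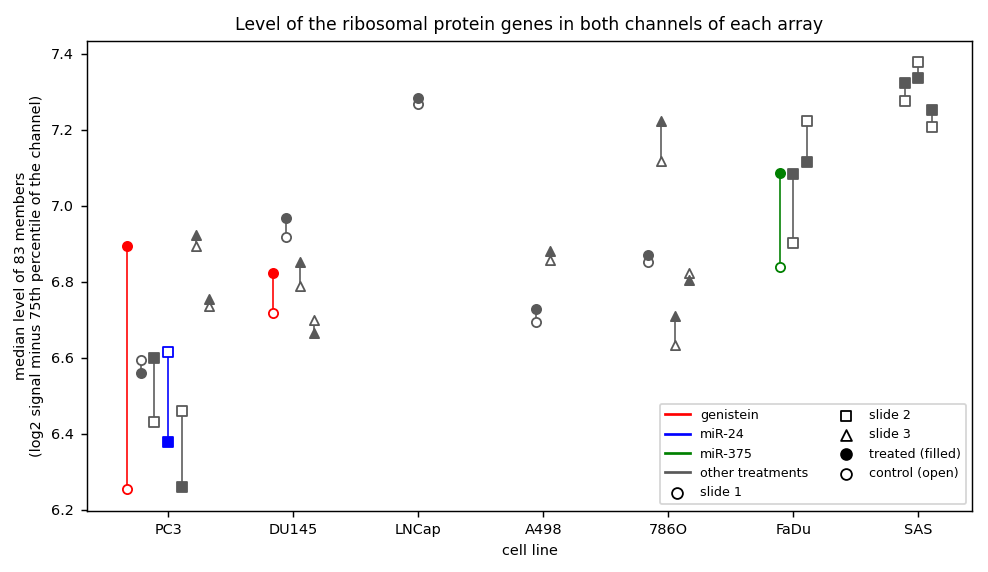
Median level of the 83 genes (vertical axis, log2 signal minus the 75th percentile of the channel) in the control (open) and treated (filled) channel of each array, by cell line (horizontal axis). Lines join the channels of 1 array and shapes give the slide. The genistein control in PC3 is the lowest point, at 6.25, and its treated channel lies at 6.89.

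The other TOP mRNAs had a higher median in PC3 than in DU145, as the members did, and ribosome biogenesis and mitochondrial ribosomal protein genes a lower one, and these differences were not tested. Among 19 further TOP mRNAs, which encode elongation factors and other translation proteins, 8 were above 0.5 in PC3 and 1 was below -0.5, with a median of 0.43. In DU145, 3 were higher and 2 lower, with a median of -0.04. TPT1 stood at 1.35 in PC3 and 0.23 in DU145, and the elongation factor EEF1A1 at 1.14 and -0.23. Limma called 4 of the 19 higher and 1 lower in the mean, and TPT1 was among the former at 0.79 (adjusted p = 0.040). Among 33 ribosome biogenesis factors, 3 were higher in PC3 (median 0.00) and 17 in DU145 (median 0.51). Among 76 mitochondrial ribosomal protein genes, which serve a separate ribosome, 1 was higher and 6 lower in PC3 (median -0.02), and 10 were higher and 2 lower in DU145 (median 0.11). EIF4EBP1, the translation repressor inhibited by mTOR, stood at 1.18 and 0.99, and MYC, a driver of ribosome production, at -0.19 and 0.70. Of the 9 genes for MYC and translation control, limma called EIF4EBP1 higher in the mean (adjusted p = 0.0057) and EIF4E (-0.52, adjusted p = 0.034) and EIF4G1 (-0.47, adjusted p = 0.016), both parts of the cap-binding complex, lower.

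Members with and without the pyrimidine start were both higher in PC3. The median was 0.82 in the 46 members with it, of which 34 were above 0.5, and 0.57 in the 20 members with a window and without it, of which 10 were above 0.5. The groups also differed in class, as of 5 paralogs with a window only RPL22L1 had the start. The 7 paralogs had a median of 0.18 on this array. Other genes with such a start had a median of 0.10 (691 genes), and those without it 0.08 (9476 genes).

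**Figure D4:**
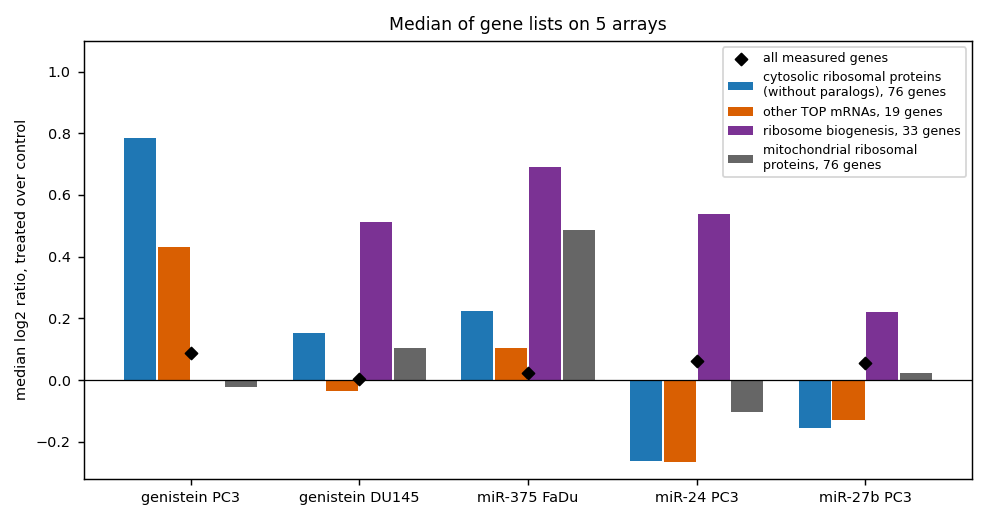
Median log2 ratio of treated over control (vertical axis) for 4 gene lists on 5 arrays (horizontal axis), with diamonds for the median of all measured genes. Cytosolic ribosomal protein genes stood highest with genistein in PC3 (0.79 without the paralogs), where ribosome biogenesis factors stood at 0.00.

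Transfection of miR-375 into FaDu cells was followed by higher values for some members, in a share near that of all genes. Here 24 of 83 members were above 0.5 (28.9%, against 25.6% of 14441 genes), and 3 were below -0.5 (3.61%, against 26.1%). The median was 0.22. The large subunit had 14 members higher, the small subunit 8 and the paralogs 2. RPL12, a protein at the base of the stalk, stood at 1.24 and ranged from -0.12 to 0.85 on the other arrays. RPL35, at the tunnel exit, stood at 1.21, with 1.14 from a second probe, and RPL31, its neighbour there, at 1.18, with 1.09 from a second probe. RPL22L1 stood at 1.15 and RPL39L at 1.32. RPL27A had the highest value, 1.68, from a probe near background. The 3 lower members were RPS19 (-0.72), which is mutated in Diamond-Blackfan anaemia, RPS16 (-0.66) and RPL10A (-0.60).

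For RPL12 the control level was 6.69, below the 7.28 and 7.62 of the other FaDu controls, and the treated level was 7.95. For RPL35 the control level was 6.32, below the 7.27 and 7.28 of the others, and the treated level 7.54. For RPL31 the control level was 6.36, below 6.42 and 6.92, and the treated level 7.56. Over all members the miR-375 control lay 0.23 below the mean of the 2 other FaDu controls and the treated sample 0.08 above it, and 5 members were more than 0.5 above that mean. The part of this control in the result was not tested. On the same array 36 of 76 mitochondrial ribosomal protein genes were above 0.5 (median 0.49) and 21 of 33 ribosome biogenesis factors (median 0.69). Of 9 genes for MYC and translation control, 2 were higher and 1 lower (median 0.01), with MYC at 1.02 and EIF4EBP1 at -1.04.

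Transfection of miR-24 into PC3 cells gave lower values for some members, in a share near that of all genes. Of 83 members, 20 were below -0.5 (24.1%, against 24.9% of 14638 genes) and 6 were above 0.5 (7.23%, against 30%). The median was -0.24, and that of all genes 0.06. Of the 81 members measured on all arrays, 30 had their lowest value here (37%, against 17.2% of 11260 genes). The lower members were 13 of 43 large-subunit and 7 of 30 small-subunit genes. RPL28, a large-subunit protein, had the lowest value, -2.35 with a software error of 0.30, but its probes disagreed. The brightest RPL28 probe, at chr19:55899332-55899391 on hg19, gave -2.35, and 3 dimmer probes at other positions of the gene gave 0.06, 0.52 and 1.12. On the other 23 arrays the brightest RPL28 probe ranged from -0.18 to 0.87. RPS20, of the small-subunit head, stood at -1.89 against -0.16 to 0.66 on the other arrays. RPL36, of the large subunit, stood at -1.39 against -0.46 to 0.87. RPL13A, which also takes part in translational silencing after interferon-gamma, stood at -1.34, with -1.44 and -1.43 from its 2 other probes. RPS27 stood at -1.17, with -0.95 from its dim second probe, and RPL6 at -1.02. RPL27A stood at -1.003, from a probe near background.

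The treated levels of RPL28, RPS20, RPL36 and RPL13A lay below those of all 4 other PC3 controls. Over all members the miR-24 control lay 0.06 above the mean of those controls and the treated sample at -0.19 from it, and 14 members were more than 0.5 below that mean. For RPL28 the control level was 6.64, within the 6.25 to 6.76 of the 4 PC3 controls other than the shared one, and the treated level 4.27. For RPS20 the control level was 6.45 within 5.78 to 7.13, and the treated level 4.55. For RPL36 the control level was 6.08 within 5.90 to 6.32, and the treated level 4.67. For RPL13A the control level was 7.46, above the 6.67 to 7.17 of the others, and the treated level 6.11. For RPS27 the control level was 7.90, above the 6.82 to 7.49 of the others, and the treated level 6.71. The highest members were RPL3L (1.11), RPL12 (0.85), RPS25 (0.78), RPL39L (0.78), RPS2 (0.63) and RPS27L (0.55). The RPL3L probe was near background, and its control signal was not well above background, so that its value is uncertain (software error 0.58).

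Among the other lists, 17 of 33 ribosome biogenesis factors were above 0.5 and 4 below -0.5 (median 0.54), 6 of 19 further TOP mRNAs were lower and 2 higher (median -0.27), and 22 of 76 mitochondrial ribosomal protein genes were lower and 7 higher (median -0.10). The median of the 46 members with the pyrimidine start was -0.29 and that of the 20 without it -0.14. The 20 held all paralogs with a window other than RPL22L1, and the 7 paralogs had a median of 0.40 on this array.

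In PC3 cells with miR-27b, which share the control sample of the miR-24 array, 6 of 83 members were lower (7.23%, against 15.2% of 14382 genes) and 2 were higher (2.41%, against 21%), with a median of -0.14. Among the lower ones were RPL17 (-0.69), RPL9 (-0.65), RPS12 (-0.58), RPS14 (-0.57) and RPL37 (-0.53), and the higher ones were RPS25 (1.37) and RPL26L1 (0.57). In 786O and A498, miR-27b gave 0 members past 0.5 in either direction. In the mean of the 3 lines limma called RPS2, a small-subunit protein, at 0.35 ± 0.08 (SE, adjusted p = 0.033), which is 1 of 81 members (1.23%, against 2.3% of all genes). RPS2 was above 0 on 23 of the 24 arrays, with a median of 0.33, so a dye effect cannot be told apart from miR-27b here.

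On the other 19 arrays few members were past 0.5. Their medians lay between -0.06 and 0.07, and 16 of 1569 values were higher and 15 lower (1.98% in all, against 18.7% of the values of all genes). The shares of all genes are not matched to the members in brightness. The brightest genes, which held 77 to 79 members, were past 0.5 less often than all genes on each of the 19 arrays. Their shares higher and lower were 0.203% and 0.135% with CXCL10 at 12 h, but 13.6% and 13.5% with si-LAMB3 in SAS. On 10 of the 19 arrays, 0 members were past 0.5. These 10 were si-CAV2 in A498 (9.24% of all genes past 0.5 in either direction) and 786O (8.01%), wogonin in FaDu (25.3%), miR-143 in DU145 (9.09%) and PC3 (9.44%), si-GOLM1 in DU145 (5.83%), miR-27b in 786O (9.84%) and A498 (9.66%), and CXCL10 at 12 h (5.57%) and 24 h (7.29%). On the rest, the members past 0.5 numbered 4 for miR-145 in PC3 (36.4% of all genes), 1 in DU145 (16.1%) and 3 in LNCap (25.3%), 5 for si-LAMB3 in FaDu (29.8%) and 3 in SAS (40.2%), 5 for wogonin in SAS (37.4%), 5 for miR-23b in PC3 (33%), 3 for miR-29a in SAS (28.3%) and 2 for si-GOLM1 in PC3 (13.3%). RPL27A had the lowest of all member values, -3.31 with miR-145 in PC3. The treated channel was not well above background there, so that the size of this value is uncertain (software error 0.41).

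Single members stood far from the family on some of these arrays. RPS25, a small-subunit protein needed by some viral internal ribosome entry sites, stood at 1.51 with si-LAMB3 in FaDu and at 1.54 with miR-23b, 1.37 with miR-27b and 0.78 with miR-24 in PC3, the last 3 with 1 shared control. With si-LAMB3 in SAS and miR-29a in SAS it stood at 0.40 and 0.62. All of these arrays lay on the second slide, where RPS25 was above 0.5 on 5 of 8 arrays (median 0.70), against 1 of 8 on the first slide (0.12) and 0 of 8 on the third (0.18). In FaDu the control level of RPS25 on the si-LAMB3 array was 6.07, against 7.38 and 7.45 in the other FaDu controls, and the treated level was 7.57. In PC3 the control level for miR-23b was 5.82, below the 6.68 to 7.48 of the 4 PC3 controls other than the shared one, and the treated level was 7.34. The parts of the slide and of the controls in these values were not tested. RPS24, which is mutated in some cases of Diamond-Blackfan anaemia, stood at -1.26 with miR-29a in SAS, where 2 spots differed by an SD of 0.01, and at -0.23 to 0.93 elsewhere. Its control level there was 7.44, beside 7.36 and 7.41 in the other SAS controls, and its treated level 6.18. RPS14, the gene whose loss underlies the anaemia of the 5q- syndrome, stood at -1.005 with si-LAMB3 in FaDu, with -0.89 and -0.87 from its 2 other probes, and at -0.16 in SAS. Its control level in FaDu was 6.44, below the 6.59 and 6.62 of the other controls, and its treated level 5.43.

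In the means over lines, limma called few members of these treatments. For miR-145 (3 lines) it called 4 of 81 (4.94%, against 17.3% of all genes). RPL7L1, a nucleolar assembly factor related to RPL7, fell by 0.59 on the log2 scale (SE 0.10, adjusted p = 0.0021), with -0.72, -0.56 and -0.49 in PC3, DU145 and LNCap. RPL21 fell by 0.40 (adjusted p = 0.012), with -0.57, -0.46 and -0.17. RPS27L rose by 0.40 (adjusted p = 0.020), with 0.50, 0.09 and 0.60. RPS2 was called at 0.32 (adjusted p = 0.013), but its sign turned in 3 alternative treatments of the data, to -0.01 after subtraction of the other treatments on the design. For si-LAMB3 (2 lines) it called 3 of 81 (3.7%, against 20.4%), which were RPS25 (0.96, adjusted p = 0.022), RPL5 (0.53, adjusted p = 0.0054) and RPL31 (0.53, adjusted p = 0.019). RPL31 was above 0 on all 24 arrays, with a median of 0.30, so a dye effect cannot be told apart here either. RPL5, a partner of 5S ribosomal RNA that binds MDM2, stood at 0.69 in FaDu and 0.37 in SAS. For wogonin (2 lines) it called 2 of 81 (2.47%, against 10.2%), RPS27L and RPS9. RPS27L stood at -0.44 (limma adjusted p = 0.047, with -0.53 in SAS and -0.35 in FaDu) and missed the threshold with either array left out. RPS9 stood at -0.39 (limma adjusted p = 0.031), with -0.47 and -0.30. Its median was -0.11 over the 24 arrays and -0.19 on the second slide, which held both wogonin arrays. Dye and slide cannot be told apart from the treatment here. For si-CAV2 and si-GOLM1 (each 0.426% of all genes) and miR-143 (0.0888%) limma called 0 members, and 2, 4 and 2 of 81 had an unadjusted p under 0.05.

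The 7 paralogs had values of their own on several arrays. RPS27L was above 0.5 on 4 arrays, miR-145 in PC3 (0.50) and LNCap (0.60), miR-23b in PC3 (0.82) and miR-24 in PC3 (0.55), and below -0.5 with wogonin in SAS (-0.53). RPS27 on the same arrays stood nearer 0 or went the other way, at -1.17 with miR-24. RPL22L1 was above 0.5 with genistein in DU145 (2.07), miR-375 (1.15) and si-LAMB3 in SAS (0.56), and below -0.5 with miR-145 in LNCap (-0.57). On the si-LAMB3 array in SAS, RPL22 was the lowest member (-0.50) and RPL22L1 the highest. With miR-375, RPL22 stood at -0.25. RPL7L1 was below -0.5 with miR-145 in PC3 and DU145 and with si-GOLM1 in PC3 (-0.60), and was above 0.5 on 0 arrays. RPL26L1, the paralog of RPL26, was highest with miR-27b in PC3 (0.57) and wogonin in SAS (0.57). RPL39L was above background in neither channel of the 786O and LNCap arrays. RPL3L was close to background throughout, and with genistein in PC3 its control was not well above background, so that its value of 0.77 is uncertain. RPL10L stood at 1.01 beside 1.04 for RPL10 with genistein in PC3, and at -0.45 beside -0.28 with miR-24, and as RPL10L is a near copy of RPL10 its values are uncertain.

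Against the median of the other members over the 24 arrays, RPL11 (Pearson's r 0.96), RPL18 (0.94) and RPS6 (0.93) were the most alike in pattern. The least alike were RPL26L1 (-0.26), RPL39L (-0.24), RPS27L (-0.16), RPS2 (-0.04) and RPL27A (-0.03). These correlations describe arrays that share slides, dye orientation and in part controls. RPL31 and RPS21 were above 0 on all 24 arrays (2 of 81 members, 2.47%, against 0.213% of all genes). RPL31 had a lowest value of 0.08 and a median of 0.30, and RPS21 of 0.05 and 0.21. RPS2 (median 0.33), RPL30 (0.09) and RPS10 (0.12) were above 0 on 23 arrays and RPL12 (0.14) on 22, RPL11 below 0 on 22 (median -0.16) and RPLP2 below 0 on 22 (median -0.13). The dye orientation was the same on all of these arrays and cannot be told apart from the treatments.

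The control channels were used to compare the lines. The control signal is also the denominator of each log2 ratio, so the 2 kinds of value are not separate. The controls mixed untreated or DMSO cultures with control-miRNA and control-siRNA cultures, and the kind of control was not a covariate. Of 80 members tested, 57 differed among the 7 lines by limma's F test with slide as a covariate (71.2%, against 78.3% of 10214 genes), over 22 control samples. The median range of line means was 0.98 over members and 1.59 over all genes, on the log2 scale of level minus the 75th percentile. LNCap had the highest mean for 39 of 80 members (and for 20.9% of all genes) and SAS for 25 (15.48% of all genes). PC3 had the lowest mean for 33 members (13.2% of all genes). The median line mean over members was 6.57 in PC3, 6.79 in A498, 6.80 in DU145, 6.86 in 786O, 7.02 in FaDu, 7.27 in SAS and 7.34 in LNCap. LNCap was represented by 1 sample and PC3 by 5, among them the genistein control, which lay below the 4 others in 72 of 83 members.

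RPL22L1 differed most, with a range of 3.43 (adjusted p = 0.00045). Its levels were 7.80 in LNCap, 7.07 and 6.63 in A498, 6.48, 5.96 and 5.72 in SAS, 6.57, 6.19, 6.10 and 4.57 in DU145, 5.47, 4.87 and 4.70 in FaDu, 5.24, 5.05, 4.30 and 3.81 in 786O, and 4.99, 4.83, 4.58, 3.79 and 3.69 in PC3. PC3 and 786O did not differ beyond their spread (difference -0.16, adjusted p = 0.79), while PC3 and A498 did (-2.44, adjusted p = 0.0015). RPL22 ran the other way in part, with means of 4.995 in PC3, 4.73 in 786O, 4.22 in FaDu, 4.22 in SAS, 4.05 in LNCap, 3.84 in DU145 and 3.26 in A498 (adjusted p = 9.0e-07). PC3 exceeded A498 by 1.73 (adjusted p = 5.3e-07), and PC3 and 786O did not differ beyond their spread (0.27, adjusted p = 0.11). Across the 7 line means, r between RPL22L1 and RPL22 was -0.72, given as a description.

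RPS27L had the next largest range, 2.97 (adjusted p = 1.2e-05). Its levels were 6.05 and 5.51 in A498, 5.62 in LNCap, 5.91, 5.30, 5.13 and 4.22 in 786O, 3.85, 3.80, 3.39 and 3.15 in DU145, 3.79, 3.44, 3.42, 2.96 and 2.78 in PC3, 3.33, 3.19 and 2.90 in FaDu, and 3.25, 3.22 and 2.95 in SAS. The 3 lines A498, LNCap and 786O lay above the other 4 with no overlap of samples. PC3 lay below A498 (difference -2.57, adjusted p = 2.9e-05). LNCap, with 1 sample, has no spread of its own to set against its neighbours. RPS27, its parent gene, had a range of 0.71 (adjusted p = 0.0075), highest in DU145 and lowest in 786O.

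**Figure D5:**
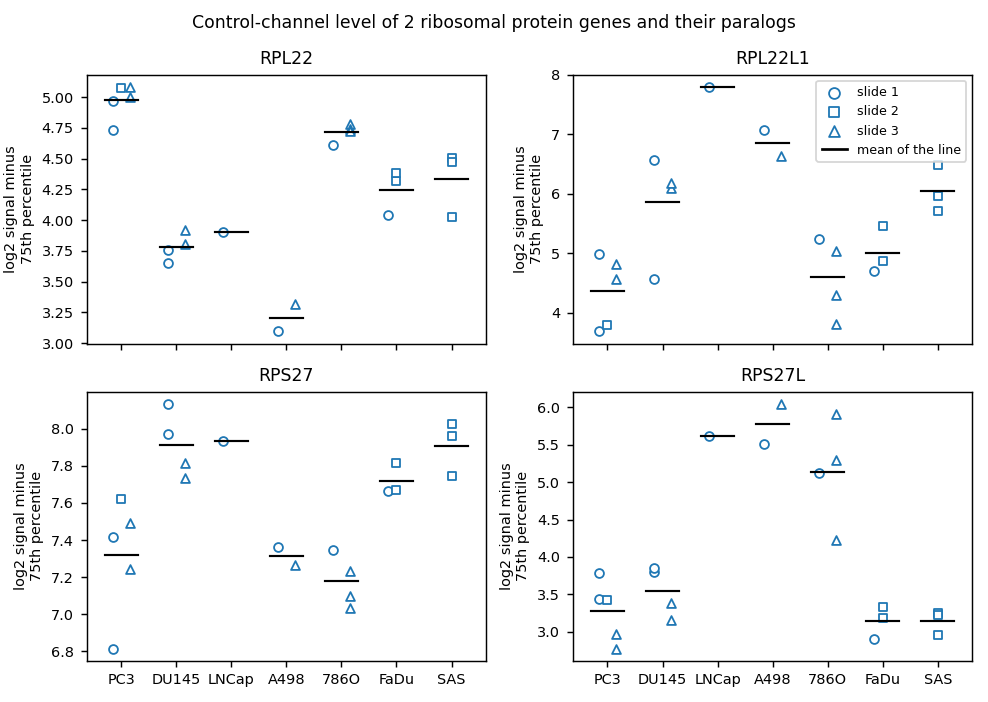
Control-channel level (vertical axis, log2 signal minus the 75th percentile of the channel) of RPL22, RPL22L1, RPS27 and RPS27L in 7 cell lines (horizontal axis). Points are control samples, shapes give the slide and bars the mean of the line. RPL22L1 runs from 3.69 in a PC3 sample to 7.80 in LNCap, and RPS27L is higher in A498, LNCap and 786O than in the other lines.

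Among subunit genes, RPS3, a small-subunit protein at the mRNA entry site, had the largest range, 2.05 (adjusted p = 0.00019). The 3 SAS samples lay at 6.14, 5.96 and 5.74, above every other sample, and the 2 A498 samples at 3.92 and 3.57, below every other. RPS20 had a range of 1.82 (adjusted p = 0.00012) and was lowest in PC3, where its samples spread from 5.78 to 7.13, and highest in SAS, from 8.11 to 8.34. RPL17 (1.84), RPS3A (1.72), RPS15A (1.61), RPL34 (1.55) and RPL26 (1.55) were the next called subunit genes besides RPL22, and of these RPS15A, RPL34 and RPL26 were lowest in PC3. The PC3 values of RPL26 were 6.17, 6.08, 5.86, 5.76 and 4.81, and the last came from the genistein control. The stalk genes RPLP0, RPLP1 and RPLP2 were not called, with ranges of 0.59, 0.76 and 0.85 and adjusted p of 0.12, 0.069 and 0.075. RPL10L and RPL10 had r of 0.94 over the line means, and the other paralogs tested, RPL7L1 and RPL26L1, were not called (adjusted p of 0.13 and 0.48).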

How the data were processed

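RNA of treated and control cultures was hybridised in pairs to Agilent SurePrint G3 human arrays of 2 probe designs (24 arrays, 58717 non-control spots each). Per the file headers, the authors' scanner files came from Agilent Feature Extraction 10.7.3.1, which subtracted background, detrended each array and removed dye bias by a linear and a LOWESS step. The deposited log10 ratio is Cy5 over Cy3, that is treated over control, and the deposited intensity values are the processed signals of both channels. The deposited value table held the same ratios. The labels give Trizol for RNA extraction, whereas the study's methods name a column kit for the genistein samples.

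Log ratios were multiplied by 3.3219 to give log2 values. Between 419 and 614 spots per array marked as outliers were left out, spots of a probe were averaged, and a gene was taken from its brightest probe on each design and was measured on an array where at least 0.5 of the probe's spots were well above background in either channel. Gene symbols were matched to RefSeq (GRCh38.p14), and probe positions are those of the files (hg19). Each array was read by size at 0.5. Means over lines were tested with limma 3.58.1 (R 4.3.3) on 11260 genes measured on all arrays, with a coefficient for each of 14 treatments and Benjamini-Hochberg adjustment per treatment at 0.05. Calls are given for the 8 treatments in 2 or 3 lines. Lines were compared with limma on log2 Cy3 signal minus the 75th percentile, with slide as a covariate, after the PC3 controls of 1 name were averaged to 1 sample. No source says whether cultures were independent, so p-values measure the spread between these samples. In the means over lines, limma took 1 spread per gene from the 8 treatments in 2 or 3 lines together, moderated across genes. An SE or p-value of 1 treatment therefore does not measure the spread of its own lines alone. The number of arrays limits the precision. Scripts were tested on simulated data, for the genistein mean over 2 lines and 11260 genes. Of 200 genes changed by 1 log2 unit, 81 were recovered, and of 200 changed by 0.5, 0. In the measured data, limma called RPL10A at a genistein mean of 0.33 (adjusted p = 0.036) and RPL19 at 0.29 (adjusted p = 0.043). Both means lie below 0.5, so the simulated shares do not show which sizes of change the fit can find in the measured data.

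Members named in the text were those with the 10 largest ranges over arrays or, if called, over lines, those called in a treatment (at most 10 in each direction), those past 1 on an array (at most 5), the paralogs with their parent genes, the stalk genes, and the genes most and least like the rest. Values for other members, among them those just past 0.5, RPS6 and RPS25 in other arrays, were given after their values were seen. The members and lists were chosen with earlier results of these data known. Alternatives covered background correction, centring, dye and slide bias, probe choice, filters, limits and left-out arrays. Sequences were read from RefSeq tables, and no protein or target-site sequence was analysed here. Some items that the rule would name are not reported here.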

Additional observations from a re-analysis of the deposited data

Results flagged for a closer look

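In 63 groups of 4 or 5 control samples, 7 held a sample far from the others of its line, and chance marks about 1 group in 20. Levels are log2 signal minus the 75th percentile of the channel. In PC3 the control of the genistein array was far below the rest for both acidic stalk genes, RPLP1 at 6.80 (others 7.30 to 7.43) and RPLP2 at 7.08 (others 7.45 to 7.51). In DU145 the control of the genistein array was low for RPL26, at 6.20 (others 6.77 to 6.87). RPS3A was low in the DU145 control of si-GOLM1, at 4.24 (others 5.88 to 6.06), and in the 786O control of CXCL10 at 12 h, at 5.19 (others 6.37 to 6.57). RPL34 was high in the DU145 control of miR-145, at 6.43 (others 6.09 to 6.14), and RPL7 in the 786O control of miR-27b, at 7.17 (others 6.61 to 6.62).

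With genistein, 2 members went past 0.5 in opposite directions in the 2 lines. RPL29 differed by 1.15 on the log2 scale (0.60 in PC3, -0.55 in DU145) and RPL39L by 1.37 (-0.53 in PC3, 0.83 in DU145). With 1 array per line these differences were not tested.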

How the results depend on the processing

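Of 164 member values past 0.5, a limit of 0.3 gave 358 and a limit of 1 gave 40. With a limit of 0.3, genistein in DU145 had 21 members higher and miR-24 had 34 lower. With a limit of 1, 16 members were higher with genistein in PC3, 1 with genistein in DU145 and 7 with miR-375, and 7 were lower with miR-24. Set against the other controls of the line, an alternative chosen after seeing the data, 15 members were higher with genistein in PC3, 4 with genistein in DU145 and 5 with miR-375, and 14 were lower with miR-24. When arrays were left out in turn, the members called over all means over lines numbered 29 to 80 (57 as reported), the genistein calls 7 to 60 (47 as reported, 7 without PC3), and the calls between lines 53 to 60. RPS2 in miR-145 turned to -0.006 after subtraction of other treatments of the design, -0.001 as a mean over probes and -0.092 after subtraction of other treatments of the slide, the last chosen after seeing the data; the cause was not tested. Higher values made up 70.7% of the values past 0.5, and 59% after subtraction of other treatments of the design. Scaling moved the median of all genes by up to 0.126 on the log2 scale. The median of the members went from 0.22 to 0.369 with miR-375 under normexp and loess, and from 0.166 to 0.278 with genistein in DU145 under loess without background correction. RPS27L in wogonin missed the threshold with either array left out and RPL22L1 in genistein without DU145. Each log2 ratio already pairs a treated with a control culture. No paired analysis was possible because the labels give no replicate numbers that groups share, and a fit with the line as a block was not run. Probes near background (RPL3L, RPL27A, RPL39L) limit what those values show.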
